A study of Mus musculus with 6 samples.

Results

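The TNF superfamily ligands and receptors were read from the gene counts by their symbols: every gene named Tnfrsf or Tnfsf with a number and at most 1 further letter, together with Tnf, Lta, Ltb, Ltbr, Cd40, Fas and Fasl. This gave 38 of the 24982 genes of the matrix, 23 receptors and 15 ligands. Poly(A) RNA was sequenced from keratinocytes of mouse back skin that carry tdTomato because they or their ancestors expressed Lgr6, a receptor of epidermal and follicle stem cells. All animals carried 2 alleles. In Lgr6-EGFP-Ires-CreERT2 the Lgr6 locus drives EGFP and a Cre that tamoxifen activates. In R26loxP-stop-loxP-tdTom this Cre switches on tdTomato, so that only cells in which Cre acted are labelled. Every animal had 1 dose of tamoxifen, 20 µg at P42, and the Tom+ cells were stained for the basal integrin CD49f. There were 3 animals (890, 892 and 899) with 2 libraries each, 1 from the normal right side, where nerves were left intact, and 1 from the denervated left side, where they had been dissected away 4 weeks before. The age at isolation beyond this is not given. Anaesthesia, the incision along the midline, single housing and Meloxicam were shared by both sides, but no dissection of the right side without nerve removal is described, so loss of nerves, the dissection and body side cannot be told apart.

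Ligands of this superfamily are mostly trimeric membrane proteins that can be shed, and their receptors carry cysteine-rich repeats outside the cell. Receptors with a death domain, such as Tnfrsf1a and Fas, can start caspase activation, whereas most others recruit TRAF adaptors and lead to NF-kappaB. In skin the family is known for inflammation, for survival and death of keratinocytes, for signalling to resident T cells, and, through Eda and Edar, for the making of hair follicles.

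The libraries held between 9610071 and 26167593 counts, and 3 counts, used as the floor of detection, corresponded to 0.115 to 0.312 CPM for counting error only. This floor was scaled to plain library totals. All other CPM are counts scaled to library size as in the edgeR fit. The keratinocyte label was borne out by its markers, with Krt5 between 17670 and 21783 CPM and Krt14 between 11864 and 15457 CPM. Suprabasal keratinocyte markers were present too, with Krt10 between 3960 and 5374 CPM. The 6 of them summed to between 9003 and 9373 CPM on the normal and 7383 and 9603 CPM on the denervated side. The denervated library of animal 890 was the shallowest, and on the main axis of variation over all genes it lay far from the rest (−37.6, where the nearest library, normal 890, had −9.73). Markers of other cells were low but present. The 12 T cell markers summed to between 107 and 131 CPM on the normal and 94.8 and 163 CPM on the denervated side, most of it Thy1 (89.2 to 157 CPM). Of that list, Cd3e stood between 0.939 and 3.05 CPM and Cd8a was at 0 in every library. The 14 Langerhans and myeloid markers summed to between 125 and 190 CPM and between 184 and 196 CPM, with Cd207 between 11.1 and 21.6 CPM, and the 5 B cell markers never exceeded 0.842 CPM. In bulk libraries such as these, fewer cells of a type and less RNA per cell cannot be told apart.

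Of the 38 members, 21 were expressed, meaning that they passed the filter on low counts and had a mean of at least 1 CPM. They were 15 receptors and 6 ligands. Tnfrsf14, the receptor of the ligand LIGHT (Tnfsf14), also passed the filter, but with single libraries down to 0.306 CPM, which made 22 tested members. The other 16 members, 7 receptors and 9 ligands, did not pass and never exceeded 16 counts or 1.00 CPM in a library.

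Receptors far outweighed ligands in these cells. In TPM, a unit that corrects for gene length and so allows levels of different genes to be compared, receptors summed to a mean of 1235 and ligands to 51.8, a ratio of 23.9. The 3 most abundant receptors held 75.6% of the receptor sum. The receptor sum ran from 1116 to 1210 TPM in the normal and from 1177 to 1403 TPM in the denervated libraries, and the ligand sum from 42.8 to 74.0 and from 44.8 to 49.4 TPM.

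The most abundant member was Tnfrsf12a (Fn14), the receptor of the ligand TWEAK and known as an injury-responsive receptor of epithelia. Its mean of 623 TPM placed it at rank 209 among 24972 genes of the TPM table. The death domain receptor Tnfrsf1a, the main receptor of TNF, followed at 170 ± 9.59 TPM (SD, n = 6 libraries). Tnfrsf19 (Troy), an orphan receptor known in hair follicle and other epithelial stem cells, stood at 141 ± 22.8 TPM, and its range overlapped that of Tnfrsf1a. Tnfrsf18 (GITR), best known as a costimulatory receptor of T cells, came next at 104 TPM, between 94.6 and 114, and overlapped neither neighbour in the order.

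A second tier of receptors lay between 29.6 and 52.9 TPM in every library, and its neighbours in the order overlapped. It held Tnfrsf4 (OX40), another costimulatory receptor of T cells, at 43.3 TPM, the death receptor Fas at 39.9 TPM on the normal and 44.1 TPM on the denervated side, Tnfrsf21 (DR6), a death domain receptor, at 39.9 TPM, and the lymphotoxin beta receptor Ltbr at 35.9 TPM. The TRAIL receptor Tnfrsf10b averaged 12.5 TPM and the decoy TRAIL receptor Tnfrsf23 8.85 TPM. The remaining receptors were Tnfrsf11a (RANK, 4.51 TPM), the decoy TRAIL receptor Tnfrsf22 (3.75 TPM), the death domain receptor Tnfrsf25 (1.90 TPM), the secreted decoy Tnfrsf11b (osteoprotegerin, 1.46 TPM) and the TNF receptor Tnfrsf1b (0.868 TPM). Tnfrsf1b, which is known from leukocytes, thus stood far below Tnfrsf1a in every library, at most 1.15 against at least 160 TPM.

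Among ligands, Tnfsf9 (4-1BBL), the ligand of the costimulatory receptor Tnfrsf9, had the highest level at 24.6 TPM. Tnf followed at 10.8 TPM, Tnfsf18, the ligand of GITR, at 8.92 TPM, and Tnfsf15 (TL1A) at 3.18 TPM. Tnfsf4, the ligand of OX40, stood at 1.87 TPM and Tnfsf10 (TRAIL) at 0.593 TPM. The ranges of Tnf and Tnfsf18 overlapped, whereas Tnfsf9 lay above Tnf in every library.

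**Figure D1:**
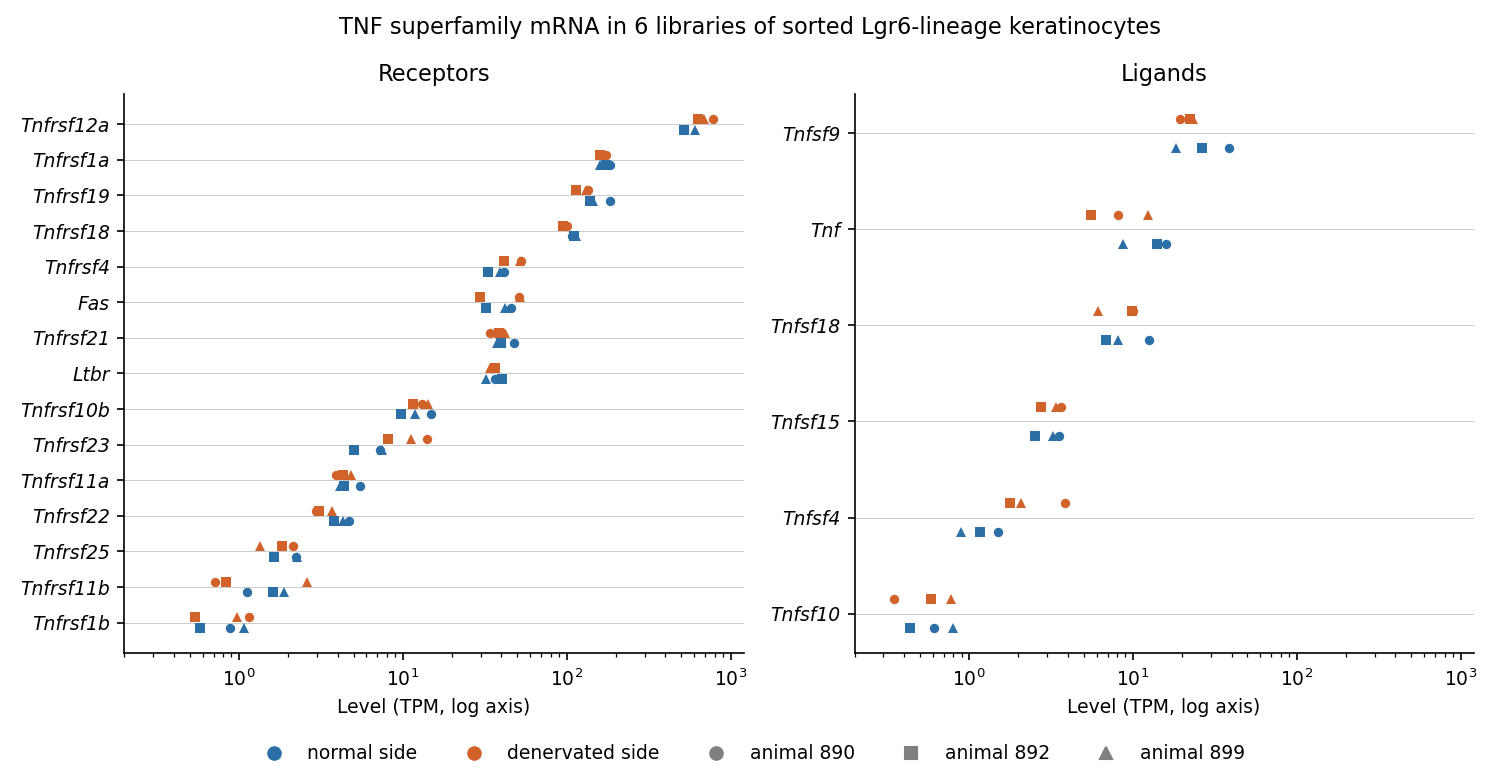
Level of each expressed receptor and ligand in each of the 6 libraries, in TPM on a log axis; colours give the side and symbols the animal. Tnfrsf12a, at 623 TPM on average, lies above all other members in every library, and the highest ligand mean, that of Tnfsf9, is 24.6 TPM.

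Known ligands and receptors were matched only in part within these cells. Of 13 expressed receptors with a ligand in the set, 9 had at least 1 expressed ligand. The other 4 were Fas, Ltbr, Tnfrsf11a and Tnfrsf12a. Among the 9, Tnfrsf10b, Tnfrsf22, Tnfrsf23 and Tnfrsf11b were matched through Tnfsf10 alone. That ligand had the lowest level of the expressed members, 0.593 TPM, with 12 to 42 counts a library. Tnfsf12, the ligand TWEAK of Tnfrsf12a, had 0 counts in all 6 libraries, and its estimated counts summed to 1.01 over them. Tnfsf12 and Tnfsf13 lie 465 bases apart on chromosome 11 (mm10), and the gene Tnfsfm13 spans both on the same strand, so that reads there may not have been assigned to either. Fasl had between 0 and 3 counts in a library, Ltb likewise between 0 and 3, and Tnfsf11, the ligand RANKL of Tnfrsf11a, between 0 and 16. Of the 6 expressed ligands only Tnfsf9 lacked an expressed receptor in the set, since Tnfrsf9 had at most 3 counts in a library.

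The members that did not pass the filter had few counts or none. Tnfrsf17, Tnfsf8, Tnfsf14 and Tnfsf12 had no count at all. Tnfrsf13b and Tnfrsf13c, receptors of B cells, reached 5 and 4 counts, and Tnfrsf8, Tnfrsf9 and Tnfrsf26 reached 4, 3 and 1. Cd40 was found in every library, with 2 to 7 counts, and Lta in every library, with 2 to 14. Tnfsf13b (BAFF) reached 13 counts and Tnfsf13 (APRIL) 2. No fold change is given for any of these.

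Between denervated and normal cells, 1 of the 22 tested members differed. The decoy receptor gene Tnfrsf23 rose 1.75-fold on the denervated side. The test was edgeR's quasi-likelihood test over 12310 genes with the animal as a block, p-values were adjusted by Benjamini-Hochberg over all of them, and a gene was called below 0.05. In that fit 3.46% of all genes were called, 2.88% as higher and 0.577% as lower, and 1 of 22 members is 4.55%, a share near that background. Without the term for the animal, no member and none of the 12310 genes was called. Members with an unadjusted p below 0.05 numbered 6 of 22, or 27.3%, against 18.2% of all genes. The median log2 fold change was −0.03 over the tested members and −0.02 over all genes, with 12 of 22 members below 0, against 54.7% of all genes. DESeq2 with the same block gave an adjusted p to 8 members and called 2 of them, Tnfrsf12a as higher and Tnfrsf19 as lower, where it called 7.53% of the genes it tested (6.84% higher and 0.693% lower).

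Levels of the 2 sides did not overlap for 8 of the 22 tested members, 4 of them higher and 4 lower on the denervated side, or 36.4% against 19% of all genes (9.76% higher and 9.21% lower). Differences had the same direction in 3 of 3 animals for 9 members (40.9%, against 40.7% of all genes), 4 higher and 5 lower. The median log2 fold change was −0.06 over the 16 tested receptors and 0.02 over the 6 ligands.

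**Figure D2:**
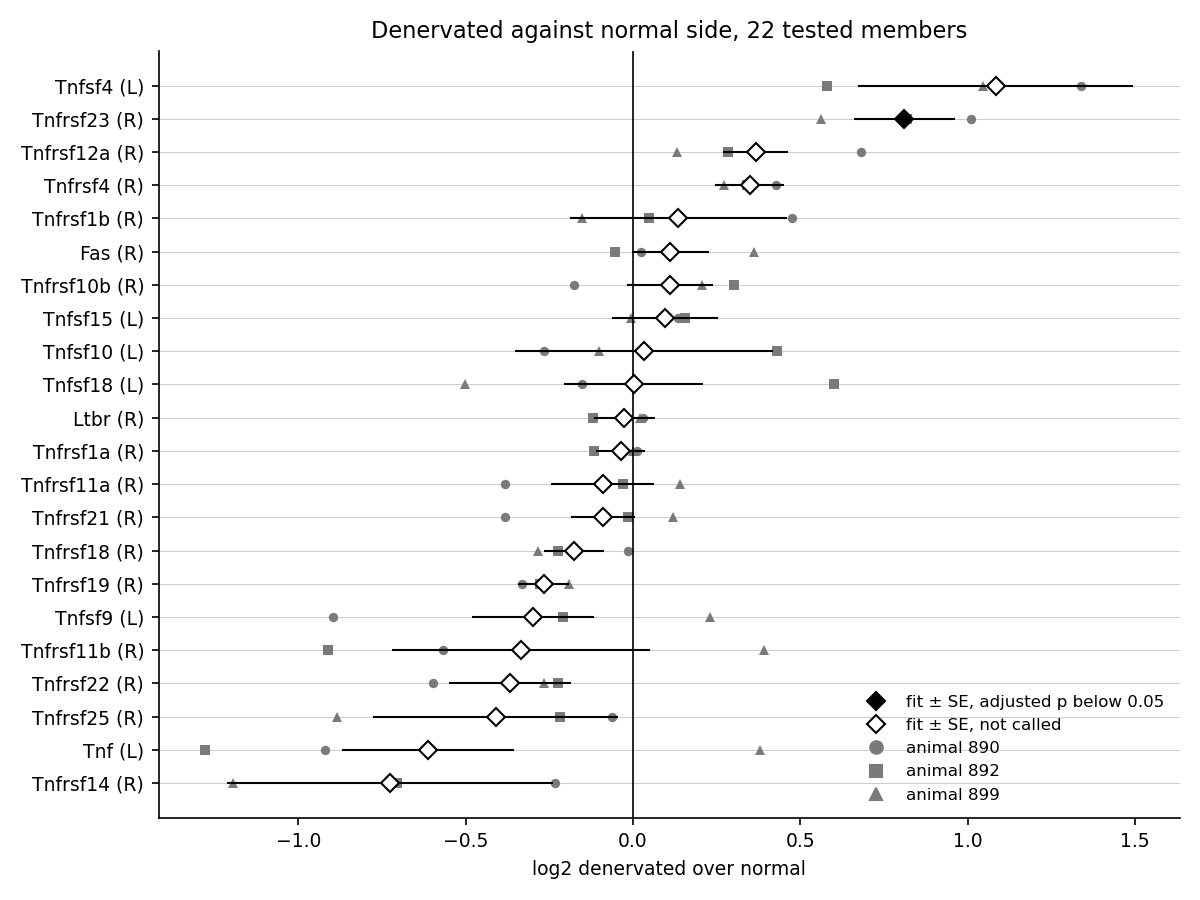
Difference between denervated and normal side for each of the 22 tested members, as the fitted log2 fold change with its standard error (diamonds) and as the difference in each animal (grey symbols); R marks receptors and L ligands. Only Tnfrsf23, at 0.81, is filled as called, and the members spread to both sides of 0.

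Tnfrsf23 lies on chromosome 7 (143665809 to 143685872, minus strand, mm10) beside its paralogs Tnfrsf22 and Tnfrsf26. Tnfrsf22 and Tnfrsf23 are known as mouse decoy receptors of TRAIL, which bind it without a death domain of their own. The gap between them is 16147 bases. Their coding exons 2 to 5 are close copies, which matters for whether reads can be told apart. Exons 2 and 5 are shown as the least alike and the most alike of these 4 exons of equal length. Exon 1 (105 bases in Tnfrsf22 against 75 in Tnfrsf23) and exon 6 (83 against 47) differ in length and were not compared. Sequences are on the sense strand from the GENCODE M21 transcripts (mm10), and capitals mark the bases that differ between the genes. Exon 2 of Tnfrsf22 is chr7:143644781-143644871 and that of Tnfrsf23 chr7:143681460-143681550. Exon 5 of Tnfrsf22 is chr7:143639902-143639975 and that of Tnfrsf23 chr7:143669982-143670055.
Tnfrsf22 exon 2: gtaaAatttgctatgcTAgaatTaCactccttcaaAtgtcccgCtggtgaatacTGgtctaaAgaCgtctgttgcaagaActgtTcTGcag
Tnfrsf23 exon 2: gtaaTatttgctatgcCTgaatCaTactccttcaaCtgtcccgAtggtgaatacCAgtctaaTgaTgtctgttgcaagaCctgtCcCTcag
Tnfrsf22 exon 5: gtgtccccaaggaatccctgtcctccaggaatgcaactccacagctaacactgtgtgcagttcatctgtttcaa
Tnfrsf23 exon 5: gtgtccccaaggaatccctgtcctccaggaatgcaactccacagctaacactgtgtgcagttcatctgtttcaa
Exon 2 differs at 15 of 91 bases and exon 5 at 0 of 74. Over exons 2 to 5 the genes are identical at 91.6% of 406 bases. Of the 50-base words in the annotated transcripts, 17.3% of those of Tnfrsf22 and 18% of those of Tnfrsf23 occur in the other gene, and none occurs in Tnfrsf26. Reads that lie wholly in a shared stretch cannot be assigned by sequence, and how the authors' counting treated them is not given in the sources used here.

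On the normal side Tnfrsf23 stood at 11.3, 7.29 and 10.4 CPM in animals 890, 892 and 899 (scaled by TMM factors, as are all CPM below), and on the denervated side at 22.8, 12.9 and 15.5 CPM. The sides did not overlap, and each animal was higher on its denervated side, by 1.01, 0.82 and 0.56 on the log2 scale. The fitted log2 fold change was 0.81 ± 0.15 SE (edgeR adjusted p = 0.0131). Its call held when animal 890, 892 or 899 was left out, with log2 fold changes of 0.70, 0.82 and 0.93. DESeq2 gave Tnfrsf23 no adjusted p. The authors' deposited table gives it the status Low and no adjusted p either. Their own comparison has a log2 fold change of 0.78 with an unadjusted p of 0.000179. Limma on TPM did not call Tnfrsf23 (adjusted p = 0.331), where it called 1 gene of all.

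The neighbour Tnfrsf22 went the other way. It stood at 9.84, 7.67 and 8.22 CPM on the normal and at 6.46, 6.55 and 6.81 CPM on the denervated side, so that every denervated library lay below every normal one. It did not pass the test (log2 fold change −0.37 ± 0.18 SE, edgeR adjusted p = 0.308). The ratio of Tnfrsf23 to Tnfrsf22 counts within a library, which does not depend on scaling between libraries, was 1.15, 0.951 and 1.27 on the normal and 3.53, 1.98 and 2.27 on the denervated side in the same order of animals. In the estimated counts, which divide shared reads between genes by a model, the ratios were 1.20, 1.01 and 1.31 against 3.70, 2.03 and 2.35. The ratio was thus higher on the denervated side of each animal in both kinds of count. It was chosen after the values were seen and is a description without a test. The gene E230032D23Rik overlaps both on the opposite strand and had 1 count over all libraries. Tnfrsf10b, the TRAIL receptor with a death domain, stood at 25.1, 16.7 and 20.2 CPM on the normal and 22.2, 20.7 and 23.3 CPM on the denervated side. Its sides overlapped and it did not pass (0.11 ± 0.13 SE, adjusted p = 0.694, edgeR). The ligand Tnfsf10 stood between 1.26 and 2.14 CPM in the 6 libraries (log2 fold change 0.03, and −0.03 scaled by library totals).

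Tnfrsf12a (chromosome 17, 23675445 to 23677468, minus strand) stood closest to the threshold after Tnfrsf23. Its levels were 237, 253 and 281 CPM on the normal and 380, 308 and 308 CPM on the denervated side. The sides did not overlap, with the denervated library of animal 890 highest. The log2 fold change was 0.37 ± 0.10 SE (edgeR adjusted p = 0.0563). Animal 890 carried much of it, since the value was 0.21 when that animal was left out (edgeR adjusted p = 0.313). Leaving out animal 892 gave 0.42 with an adjusted p of 0.0410, and leaving out animal 899 gave 0.48 with 0.00155, both called. DESeq2 called it with the animal as a block (adjusted p = 0.00903) and without (0.0156), and the authors' deposited table gives 0.38 with an adjusted p of 0.00755. With all animals, edgeR called it with DESeq2 size factors (0.0494) and with no filter on low counts (0.000415). It did not pass in edgeR without the block (adjusted p = 0.208) or under scaling by library totals (0.0972). Limma on TPM did not call it (adjusted p = 0.351 and 0.398 with pseudocounts of 1 and 0.1).

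Tnfrsf19 (chromosome 14, 60963875 to 61046490, minus strand) stood at 425, 342 and 348 CPM on the normal and 338, 282 and 305 CPM on the denervated side. Each animal was lower on the denervated side, by −0.33, −0.28 and −0.19 on the log2 scale, and the sides did not overlap. The log2 fold change of −0.27 ± 0.08 SE did not pass (edgeR adjusted p = 0.0721). In edgeR it passed when animal 899 was left out (adjusted p = 0.0239), under scaling by library totals (−0.33, 0.0394) and with no filter on low counts (0.0293). DESeq2 with the block called it (adjusted p = 0.0231), and the authors' deposited table gives an adjusted p of 0.0263. It did not pass in edgeR without animal 890 (adjusted p = 0.245), without animal 892 (0.409) or without the block (0.340). DESeq2 without the block did not call it (adjusted p = 0.149).

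The neighbouring genes Tnfrsf4 and Tnfrsf18 lie 9551 bases apart on chromosome 4 and encode receptors with related roles on T cells. Tnfrsf4 stood at 25.9, 22.1 and 26.2 CPM on the normal and 34.9, 28.0 and 31.7 CPM on the denervated side, higher in each animal and without overlap. Its log2 fold change was 0.35 ± 0.10 SE (edgeR adjusted p = 0.0845). Tnfrsf18 stood at 54.1, 58.8 and 58.7 CPM on the normal and 53.5, 50.3 and 48.2 CPM on the denervated side. It was lower in each animal, by only −0.02 in animal 890, and did not pass (−0.18 ± 0.09 SE, edgeR adjusted p = 0.315). The T cell marker sum was higher on the denervated side in animals 890 and 892 and lower in animal 899 (131, 109 and 107 against 163, 133 and 94.8 CPM). Most of this sum was the 1 gene Thy1 (89.2 to 157 CPM). The part of T cells in the level of Tnfrsf4 was not tested.

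The ligand of OX40, Tnfsf4, had the largest fitted difference of the tested members and few counts. It stood at 1.20, 0.982 and 0.715 CPM on the normal and 3.23, 1.53 and 1.61 CPM on the denervated side, from 10 to 32 counts a library. The sides did not overlap and each animal was higher on the denervated side, yet the log2 fold change of 1.08 ± 0.41 SE did not pass (edgeR adjusted p = 0.173). Its neighbour Tnfsf18, 76244 bases away on chromosome 1, stood at 12.0, 6.97 and 8.51 CPM against 10.8, 10.6 and 5.97 CPM. The sides overlapped, and the animals differed in direction (−0.15, 0.60 and −0.50). The fit gave a log2 fold change of 0.0018, which became −0.06 under scaling by library totals.

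**Figure D3:**
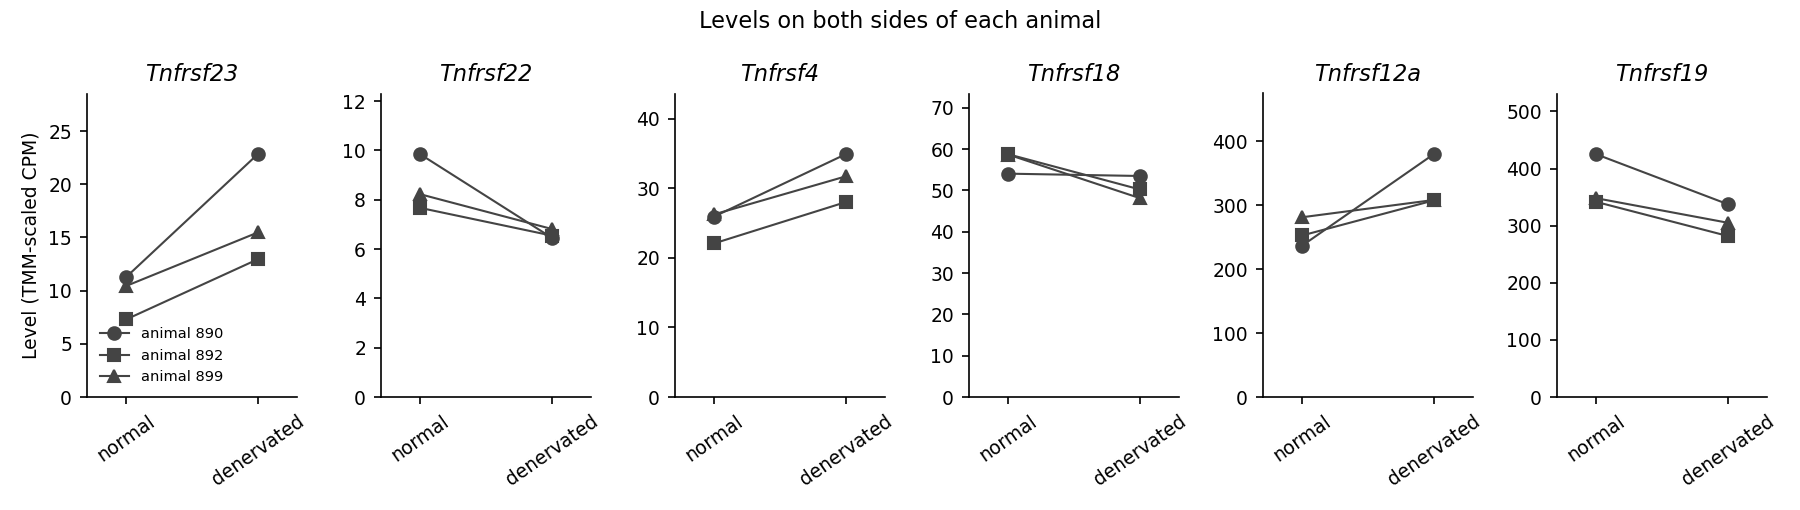
Levels of 6 receptor genes on the normal and denervated side of each animal, in TMM-scaled CPM from 0; lines join the sides of 1 animal. Tnfrsf23 and Tnfrsf22 slope in opposite directions in all 3 animals, as do Tnfrsf4 and Tnfrsf18, with animal 890 nearly level for Tnfrsf18.

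Tnf, the founding cytokine of the family, was lower in 2 of 3 animals. It stood at 13.6, 12.3 and 7.86 CPM on the normal and 7.11, 5.02 and 10.3 CPM on the denervated side, so that the sides overlapped. On the log2 scale animals 890 and 892 were lower by −0.92 and −1.28, and animal 899 was higher by 0.38. The fitted value of −0.61 ± 0.26 SE did not pass (edgeR adjusted p = 0.224). When animal 899 was left out, the log2 fold change was −1.11 and passed (adjusted p = 0.00145), and when animal 892 was left out it was −0.25. With all animals and no filter on low counts, edgeR also called Tnf, at −0.61 (adjusted p = 0.0147). Tnfsf9 had the same pattern over animals (−0.90, −0.21 and 0.23). Its levels were 23.1, 16.3 and 11.7 CPM on the normal and 12.4, 14.1 and 13.7 CPM on the denervated side (−0.30 ± 0.18 SE, edgeR adjusted p = 0.416). The normal library of animal 890 was the highest for both ligands. Tnfsf15 ranged from 7.95 to 10.8 CPM and from 8.87 to 11.8 CPM, with overlap.

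The receptors of Tnf and lymphotoxin differed little. Tnfrsf1a stood at 222, 222 and 200 CPM on the normal and 224, 204 and 200 CPM on the denervated side, a log2 fold change of −0.04 ± 0.07 SE (edgeR adjusted p = 0.840). Ltbr, 35476 bases from it on chromosome 6, stood at 43.0, 49.2 and 39.0 against 43.9, 45.2 and 39.6 CPM (−0.03 ± 0.09 SE, adjusted p = 0.913, edgeR). The signs of both turned without animal 892 (0.02 and 0.04). The rarer Tnfrsf1b ranged from 1.68 to 3.07 CPM on the normal and from 1.75 to 3.44 CPM on the denervated side.

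Among the death domain receptors, Fas stood at 29.6, 22.0 and 25.9 CPM on the normal and 30.0, 21.2 and 33.3 CPM on the denervated side (0.11 ± 0.11 SE, edgeR adjusted p = 0.655). Tnfrsf21 stood at 89.5, 78.7 and 73.1 CPM against 68.7, 78.0 and 79.5 CPM (−0.09 ± 0.10 SE, edgeR adjusted p = 0.666). Both overlapped, and Tnfrsf21 was lower only in animals 890 and 892. Tnfrsf25 ranged from 1.96 to 2.93 CPM on the normal and from 1.53 to 1.94 CPM on the denervated side, without overlap, at an adjusted p of 0.595 (edgeR). Among the remaining receptors, Tnfrsf11a ranged from 11.9 to 14.8 CPM on the normal and from 11.3 to 13.1 CPM on the denervated side. The secreted decoy Tnfrsf11b ranged from 1.65 to 2.72 CPM and from 1.08 to 3.60 CPM, and both overlapped. Tnfrsf14 was lower in 3 of 3 animals, from 0.858 to 1.54 CPM against 0.306 to 1.29 CPM, with overlap.

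Family members whose symbols lie outside the rule were few. Of 8 such genes 5 were tested and none was called. Ngfr, the neurotrophin receptor, and Relt, an orphan receptor, had the smallest p. Ngfr stood at 30.2, 25.0 and 23.9 CPM against 16.7, 26.3 and 18.7 CPM (−0.36 ± 0.15 SE, edgeR adjusted p = 0.221). Relt stood at 2.07, 2.48 and 2.93 CPM against 4.41, 3.71 and 3.44 CPM without overlap (0.64 ± 0.29 SE, edgeR adjusted p = 0.269). Eda ranged from 9.80 to 13.9 CPM over the 6 libraries and its receptor Edar from 0.919 to 3.35 CPM. Cd27, Cd70 and Cd40lg had 0 counts in every library.

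Among the genes that carry the signal of these receptors, called genes were few. None of these calls held in edgeR without the animal term, which called 0 of 12310 genes. Nor did any hold in limma on TPM, which called 1 gene. Losing a call in these 2 settings thus does not set a gene apart from the others. Of 14 tested NF-kappaB core genes 3 rose and none fell, against 2.88% of all genes called higher and 0.577% called lower. The list was chosen with earlier results of these data known, so this comparison is a description only. The subunit gene Rela rose in each animal by 0.43, 0.41 and 0.40 on the log2 scale, from 235, 180 and 231 CPM to 317, 239 and 304 CPM (0.41 ± 0.07 SE, edgeR adjusted p = 0.0103). Bcl3, an atypical inhibitor that acts with the p50 and p52 subunits in the nucleus, rose by 0.45 ± 0.09 SE, and Nfkb2, the gene of the p100 precursor, by 0.31 ± 0.07 SE. The call of Rela held in edgeR without animal 890, 892 or 899 (adjusted p = 0.00396, 0.0280 and 0.00203) and under scaling by library totals (0.0281). DESeq2 also called Rela, with the block (adjusted p = 3.42e-05) and without it (0.0262). The call of Bcl3 was lost without animal 892 (adjusted p = 0.124), and that of Nfkb2 without animal 890 (0.109) or 892 (0.163) and under scaling by library totals (0.0778), in edgeR. Bcl3 and Nfkb2 were not called by DESeq2 without the block (0.0654 and 0.197). Rel and Nfkb1 stood at 0.27 and 0.26 and did not pass. Of the 14 genes 5 were below 0, the lowest being Ikbkg at −0.22 (edgeR adjusted p = 0.274). The inhibitor gene Nfkbia stood at 0.03 (edgeR adjusted p = 0.912). The median of the list was 0.06, against −0.02 over all genes.

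Of 21 tested receptor-proximal adaptors, 1 fell and none rose, with a median of 0.05. Of all genes 3.46% were called, 0.577% as lower, and 1 call is too few to set against these shares. The called adaptor was Edaradd, which acts with the receptor Edar. It fell from 84.1, 93.1 and 67.5 CPM to 50.2, 70.3 and 57.8 CPM (−0.46 ± 0.10 SE, edgeR adjusted p = 0.0246). Ripk1, the kinase recruited to Tnfrsf1a, stood at 0.32 ± 0.08 SE and did not pass (edgeR adjusted p = 0.0513). Of 12 feedback inhibitors none was called. An unadjusted p below 0.05 was found for 5 of them, all higher. Of all genes 18.2% had one in either direction, and no share for the higher direction alone is given here. Of the 12 inhibitors 3 were below 0. Tnfaip3, the most abundant of the list at a mean of 1267 CPM, stood at 0.03 (edgeR adjusted p = 0.922). N4bp1 and Spata2 had the smallest p (0.21 and 0.24 on the log2 scale), and the list median was 0.14. Of 17 genes of the death machinery none was called, with Ripk3 (0.25) and Bcl2l1 (−0.29) closest and a list median of −0.0018.

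Of 7 genes of ligand processing, 1 rose, where 3.46% of all genes were called, 2.88% as higher. Furin, a convertase that cleaves several ligands of the family, went from 139, 147 and 148 CPM to 180, 193 and 168 CPM (0.32 ± 0.08 SE, edgeR adjusted p = 0.0386). Its call was lost without animal 890 (adjusted p = 0.0625) or 892 (0.231) and when edgeR scaled by library totals (0.0799). The sheddase gene Adam17, which releases TNF from the membrane, stood at 114 and 109 CPM on average (−0.06 ± 0.08 SE, edgeR adjusted p = 0.735). Of 20 tested genes known to be induced by TNF, 1 fell, where 0.577% of all genes were called lower. It was the transcription factor gene Irf1 (−0.46 ± 0.11 SE, edgeR adjusted p = 0.0330). The call of Irf1 was lost in edgeR without animal 890 (0.0571) or 892 (0.0771) and in DESeq2 with the block (0.169). The list median was −0.05, with 11 of 20 below 0. Its chemokine gene Cxcl10 averaged 16.8 and 10.1 CPM (adjusted p = 0.103), and the inducible cyclooxygenase gene Ptgs2 446 and 559 CPM (adjusted p = 0.131), in edgeR.

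**Figure D4:**
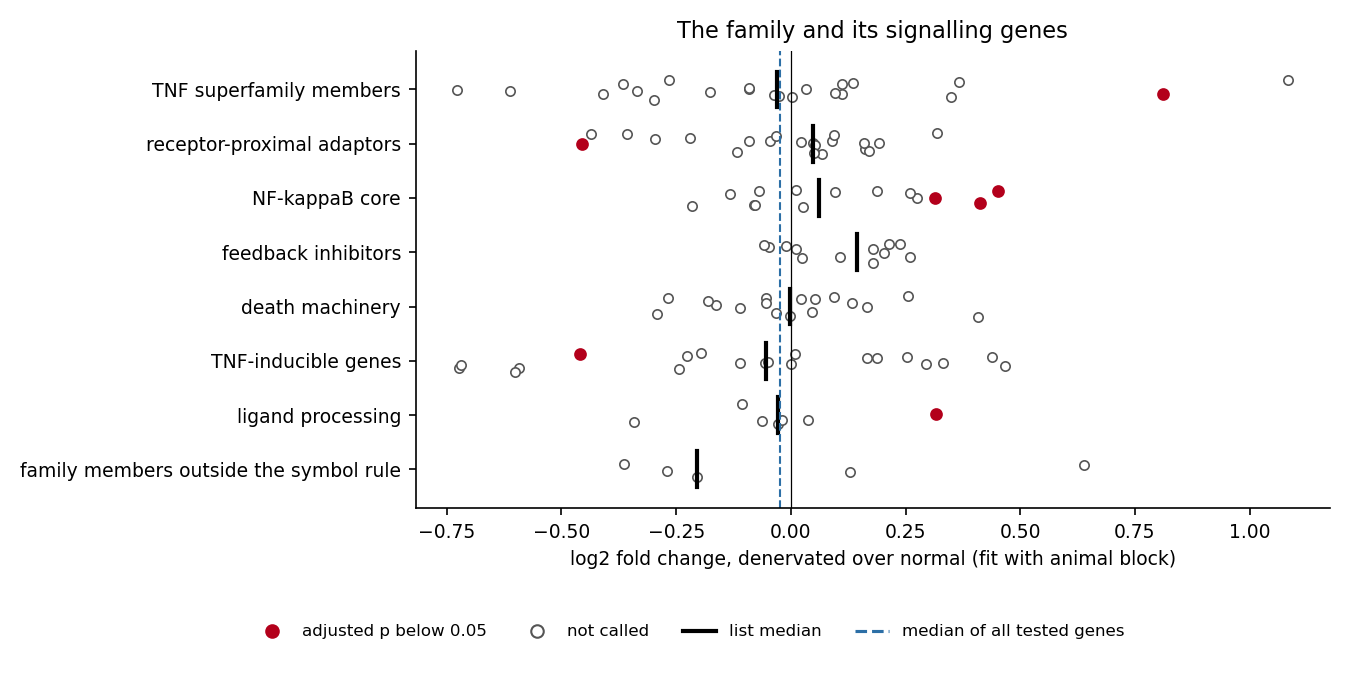
Fitted log2 fold change of each tested gene in the family and in 7 lists of its signalling genes; filled points are called, black bars are list medians, and the dashed line is the median of all tested genes (−0.02). The called genes are Tnfrsf23, Rela, Bcl3, Nfkb2 and Furin above 0 and Edaradd and Irf1 below.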

How the data were processed

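RNA of 6 libraries was compared, 3 from each side, made with a directional kit. STAR 2.6.1a, Salmon 0.11.2 and mm10 appear in the submitters' processing notes without roles. For the counting tool, its use of strand and the annotation, nothing is stated in the labels. Whole-number gene counts, not normalised, are what the authors deposited as a matrix. Each library also has deposited estimated counts and TPM per gene, per the file headers, and TPM were deposited as a joint table. The authors' deposited table of their own comparison holds log2 fold changes, p-values, adjusted p-values, a test score and a mean normalised signal.

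Titles gave side and animal. An animal's 2 libraries are from 1 mouse, per the labels' protocols, which pairs them; as a check, their deviations from the side means had correlations of 0.356, 0.361 and 0.443 across genes. The main test was the quasi-likelihood test of edgeR 4.0.16 (R 4.3.3) with TMM factors, filterByExpr (minimum count 10, minimum total 15), animal as block and Benjamini-Hochberg adjustment over 12310 genes. The SE was derived from the fold change and the F statistic. Per-animal differences use log2 CPM with a prior count of 2. As alternatives, DESeq2 1.42.0 was run, and limma 3.58.1 was run on TPM after adding 1 or 0.1 and taking log2, which understates changes of low genes (mean TPM at least 1). Estimated counts were rounded for edgeR. The edgeR test was tested on simulated data. Libraries of a side differed beyond sampling noise, so none was a duplicate. The labels name no batch.

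The members and lists were chosen with earlier results of these data known. The named genes were members that passed the filter, with full statistics for those with an unadjusted p below 0.05 or among the 10 highest in TPM, and called list genes or the 2 with the smallest p. Further list genes were named after their values were seen. Coordinates are from GENCODE M21 (mm10), which matched all 38 members by symbol. Of these, 14 overlap another annotated gene, so their reads may not be separable without strand. For Fas, Lta, Ltb, Tnfsf12 and Tnfsf13 an overlapping gene lies on the same strand, where strand does not separate reads either.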

Additional observations from a re-analysis of the deposited data

How the results depend on the processing

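Alternatives within edgeR changed 1 choice at a time. DESeq2 also brought its own scaling and filter, and limma another input, scale and filter. The block was kept unless stated. Of 252 values of the 22 tested members under them, 221 kept their direction and their side of the threshold, 13 newly passed, 3 no longer passed and 15 changed sign. In all, 14 members kept their sign throughout. The 3 lost calls were those of Tnfrsf23 without the block (0.81, adjusted p = 0.211) and in limma on TPM (0.67 and 0.74 with pseudocounts of 1 and 0.1).

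Without the replicate block, edgeR called 0 of 12310 genes (1537 at an unadjusted p below 0.05), 0 members, and 0 genes in each of the lists of adaptors, NF-kappaB core, TNF-inducible genes and ligand processing. Limma called 1 gene with either pseudocount and 0 in the members and in these 4 lists. With no filter on low counts the calls were 987 genes, 5 members, 4 adaptors, 5 of the NF-kappaB core, 3 TNF-inducible genes and 2 of ligand processing. Members called were 2 with DESeq2 size factors, 2 with library totals and 2 in DESeq2, which gave only 8 members an adjusted p. Adaptors called were 2 with DESeq2 size factors, at least 1 CPM in 3 libraries, estimated counts and DESeq2 alike. DESeq2 called 5 of the NF-kappaB core. With library totals, 290 genes were called, 59.3% of them higher, against 426 and 83.3%. DESeq2 with the block called 489 and DESeq2 without it, added after the data were seen, 367. Leaving out 1 animal at a time gave 248 to 976 genes, 1 to 4 members, 1 to 3 adaptors, 1 to 5 of the NF-kappaB core, 0 to 2 TNF-inducible genes and 0 to 1 of ligand processing. With library totals 1 gene of ligand processing was called, which was not Furin. The low ends of genes and of NF-kappaB came without animal 892, and the high ends of genes and of members without animal 899.

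Signs turned only in 8 members with a fitted value between −0.09 and 0.14. Tnfsf18 stood at −0.017 without the block, −0.061 with library totals, −0.013 with estimated counts and −0.055 and −0.060 with limma. Tnfsf10 stood at −0.027 with library totals and −0.077 with estimated counts. Leaving out 1 animal at a time moved Tnfsf18 from −0.30 to 0.22, Tnfsf10 from −0.17 to 0.17, Tnfrsf11a from −0.20 to 0.053, Tnfrsf21 from −0.19 to 0.053, Fas from −0.015 to 0.21, Tnfrsf1b from −0.059 to 0.29, Ltbr from −0.053 to 0.041 and Tnfrsf1a from −0.060 to 0.022. The cause of these changes was not tested. Tnfsf4, Tnfsf10, Tnfrsf1b, Tnfrsf11b, Tnfrsf14 and Tnfrsf25 averaged below 3 CPM, and the part of depth in their tests was not tested.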
